A study of Mus musculus with 31 samples.

Results

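The genes described here are 9 that store, import, export, release or sense iron, namely Fth1, Ftl1, Tfrc, Trf, Slc11a2, Slc40a1, Cp, Hmox1 and Ireb2. They were chosen by symbol. All 9 were among the 23509 genes of the count files, and all 9 passed the filter on low counts, which kept 15185 genes.

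Cells take up iron mostly as transferrin bound to transferrin receptor 1, move it across the endosomal membrane through DMT1, keep the surplus inside ferritin shells and release it through ferroportin. In the kidney, filtered transferrin and other iron carriers are taken back by the proximal tubule, and heme oxygenase 1 frees iron from heme. Iron regulatory proteins bind hairpins called iron-responsive elements when iron is scarce, which blocks translation where the hairpin lies in a 5′ untranslated region (UTR) and stabilizes the mRNA where hairpins lie in the 3′UTR.

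Poly(A) RNA from whole kidneys of 31 mice was sequenced. Pcy/CD1 mice carry the recessive pcy mutation on the outbred CD1 background and develop cystic kidneys slowly. From 5 weeks of age, 14 of them received RGLS4326 under the skin at 25 mg/kg each month for 25 weeks, and 12 received the saline vehicle PBS. RGLS4326 is a short modified oligonucleotide complementary to the seed of miR-17, a microRNA that represses its target mRNAs. The 5 wild-type mice were untreated male WT/CD1 mice of the same age, 30 weeks. The sample labels give the PBS schedule as weekly in one field and monthly in another and give no sex for the Pcy/CD1 mice. The study describes these mice as male and PBS as weekly, in which case the number of injections and the drug cannot be told apart. The wild-type mice received no injection, so genotype and injection cannot be told apart in comparisons with them.

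Between 14892524 and 27459962 reads per mouse were counted on genes, with group medians of 19961466 (wild type), 20562148 (PBS) and 19898000 (RGLS4326). Proximal tubule markers, led by Lrp2 and Slc34a1, summed to 35990 to 40740 CPM in wild-type mice (CPM are read counts scaled to a common library size, after correction for composition), so the tissue label matched its defining genes. RGLS4326 mouse 9 stood apart from its group. It had the highest proximal tubule sum (33880 CPM) and the lowest macrophage sum (169.3 CPM, against 166.4 to 186.8 in wild-type mice) of the 14 treated mice. Group comparisons below that rest on it are given with and without it. Wild-type mice 3 and 4 resembled each other most (11799 genes, chi-square 2.69 per gene). The next closest wild-type pair had 16.05 and the closest PBS pair 4.912. Their counts differed by more than counting error, which 2 libraries of 1 mouse could do too, so this cannot show separate sources. Mice 3 and 4 were kept as 2 mice, as labeled. The deposited names also fall into 3 numbered series that restart within each group. They hold 4, 4 and 4 PBS mice, 4, 5 and 5 RGLS4326 mice, and 2, 2 and 1 wild-type mice, and what they stand for is not given in the sources used here.

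The sequences below are shown because 4 of the 9 transcripts hold the letters of an iron-responsive element and 1 of them also holds letters opposite the seed of the microRNA that the drug blocks. In the mature microRNA the seed (bases 2 to 8) is in capitals. In the iron-responsive elements the loop of the hairpin is in capitals, and in the seed matches the bases opposite the seed are in capitals.
miR-17-5p (chr14:115043684-115043706, plus strand): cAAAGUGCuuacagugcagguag
Fth1 5′UTR, exon 1 of 4 (chr19:9982733-9982759, plus strand): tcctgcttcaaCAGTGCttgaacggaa
Ftl1 5′UTR, exon 1 of 4 (chr7:45459780-45459806, minus strand): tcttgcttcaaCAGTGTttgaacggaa
Slc40a1 5′UTR, exon 1 of 8 (chr1:45925466-45925492, minus strand): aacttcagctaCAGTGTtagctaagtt
Tfrc 3′UTR, exon 19 of 19 (chr16:32631220-32631246, plus strand): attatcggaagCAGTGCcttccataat
Tfrc 3′UTR, exon 19 of 19 (chr16:32631599-32631625, plus strand): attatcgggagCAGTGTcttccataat
Tfrc 3′UTR, exon 19 of 19 (chr16:32631664-32631690, plus strand): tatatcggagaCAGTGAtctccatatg
Tfrc 3′UTR, exon 19 of 19 (chr16:32631711-32631737, plus strand): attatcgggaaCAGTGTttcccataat
Slc40a1 3′UTR, exon 8 of 8 (chr1:45908305-45908327, minus strand): cttttgatGCACTTTcatggaga
Slc40a1 3′UTR, exon 8 of 8 (chr1:45908267-45908289, minus strand): tgctgtgaGCACTTTctttgtcg

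The microRNA sequence is from RefSeq on GRCm38.p6, and the other sequences are from GENCODE vM21 transcripts on GRCm38. The element was searched on the transcript strand only, as C, then 5 stem bases, CAGTGN with any last base but G, then 5 bases that pair with the stem, G-T pairs allowed. It lay in the longest 5′UTR of 17 of 20899 genes (0.0813%), 3 of them members, and in the longest 3′UTR of 94 of 21028 genes (0.447%), of which Tfrc was the 1 gene with 4 or more. The seed match GCACTTT lay in the longest 3′UTR of 2470 of 21028 genes (11.7%). Among the 9 genes only the 3′UTR of Slc40a1 held it, with 2 matches, which is close to the share over all genes. Beyond the sequences printed, neither pattern was found in the searched UTRs of the members, Slc11a2 included. The element pattern allows no unpaired base within its 5 stem pairs, so elements with such a base would be missed. A gene without a match, or with few, may therefore hold elements that were not found. A match is a stretch of letters and not a measured site.

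**Figure D1:**
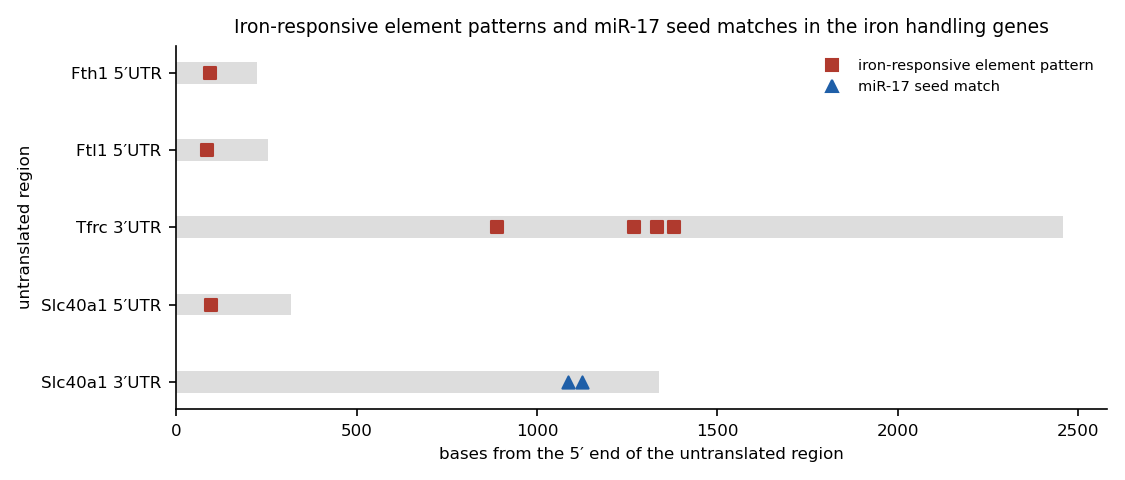
Untranslated regions of Fth1, Ftl1, Tfrc and Slc40a1 drawn to scale as grey bars, with bases from the 5′ end of each region on the x axis, iron-responsive element patterns as red squares and miR-17 seed matches as blue triangles. The 4 Tfrc elements lie between bases 889 and 1380 of a 3′UTR of 2458 bases, and the 2 seed matches of Slc40a1 lie at bases 1087 and 1125 of 1338.

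In cystic kidneys given PBS, against wild-type kidneys, transferrin receptor, DMT1 and iron regulatory protein 2 transcripts fell. Ceruloplasmin and transferrin transcripts rose, and both ferritin chains were lower by less than the size threshold. The transferrin rise was not secure. Its adjusted p was 0.0513 to 0.0898 when wild-type mouse 1, 2, 3 or 4 was left out, and its means turned in index series 3. The test was the quasi-likelihood test of edgeR, with p-values adjusted by Benjamini-Hochberg over 15185 genes, and a gene was called when its adjusted p was below 0.05 and its log2 fold change exceeded 0.5 in size. In PBS against wild type, 3 of 9 genes were called lower and 2 higher. Over all genes tested, 42.4% were called, 17.8% lower and 24.6% higher. Without the size threshold 5 of 9 genes passed as lower and 2 as higher, where 74.3% of all genes passed (36.6% lower, 37.7% higher). The counts of members passing were thus near the shares over all genes.

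RGLS4326 moved no member past both thresholds against PBS, where 2.15% of all genes were called (0.935% higher, 1.22% lower). With the adjusted p alone, 4 of 9 passed, namely Ireb2, Fth1, Tfrc and Slc11a2, all 4 higher in treated mice, against 15.8% of all genes (9.15% higher, 6.66% lower). That count was 1 without PBS mouse 10 and 2 without PBS mouse 2, 3, 5 or 9 or RGLS4326 mouse 6, 9 or 10. At an unadjusted p under 0.05, 5 of 9 passed, Hmox1 being the fifth (p = 0.0229, adjusted p = 0.0858), as did 5595 of the 15185 genes. DESeq2 likewise called 0 of 9 with both thresholds. Against wild type, the treated kidneys had 3 members called lower and 2 higher, where 31.5% of all genes were called (11.3% lower, 20.3% higher). With the adjusted p alone 5 were lower and 3 higher, where 64.9% of all genes passed (32.4% lower, 32.5% higher). The 3 comparisons share mice, so their values are set side by side below and no agreement between them is read.

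Median log2 fold changes of the 9 were -0.41 in PBS against wild type, 0.17 in RGLS4326 against PBS and -0.22 in RGLS4326 against wild type. The same medians over all genes tested were 0.01, -0.00 and 0.00. Ranges of CPM did not overlap between PBS and wild-type mice for 5 of 9 genes, 4 lower and 1 higher (42.2% of all genes, 21.9% lower and 20.3% higher). They did not overlap for 0 of 9 between RGLS4326 and PBS mice (0.00% of all genes). Between RGLS4326 and wild-type mice they were apart for 2 of 9, both lower (14.8% of all genes, 9.75% lower and 5.04% higher).

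**Figure D2:**
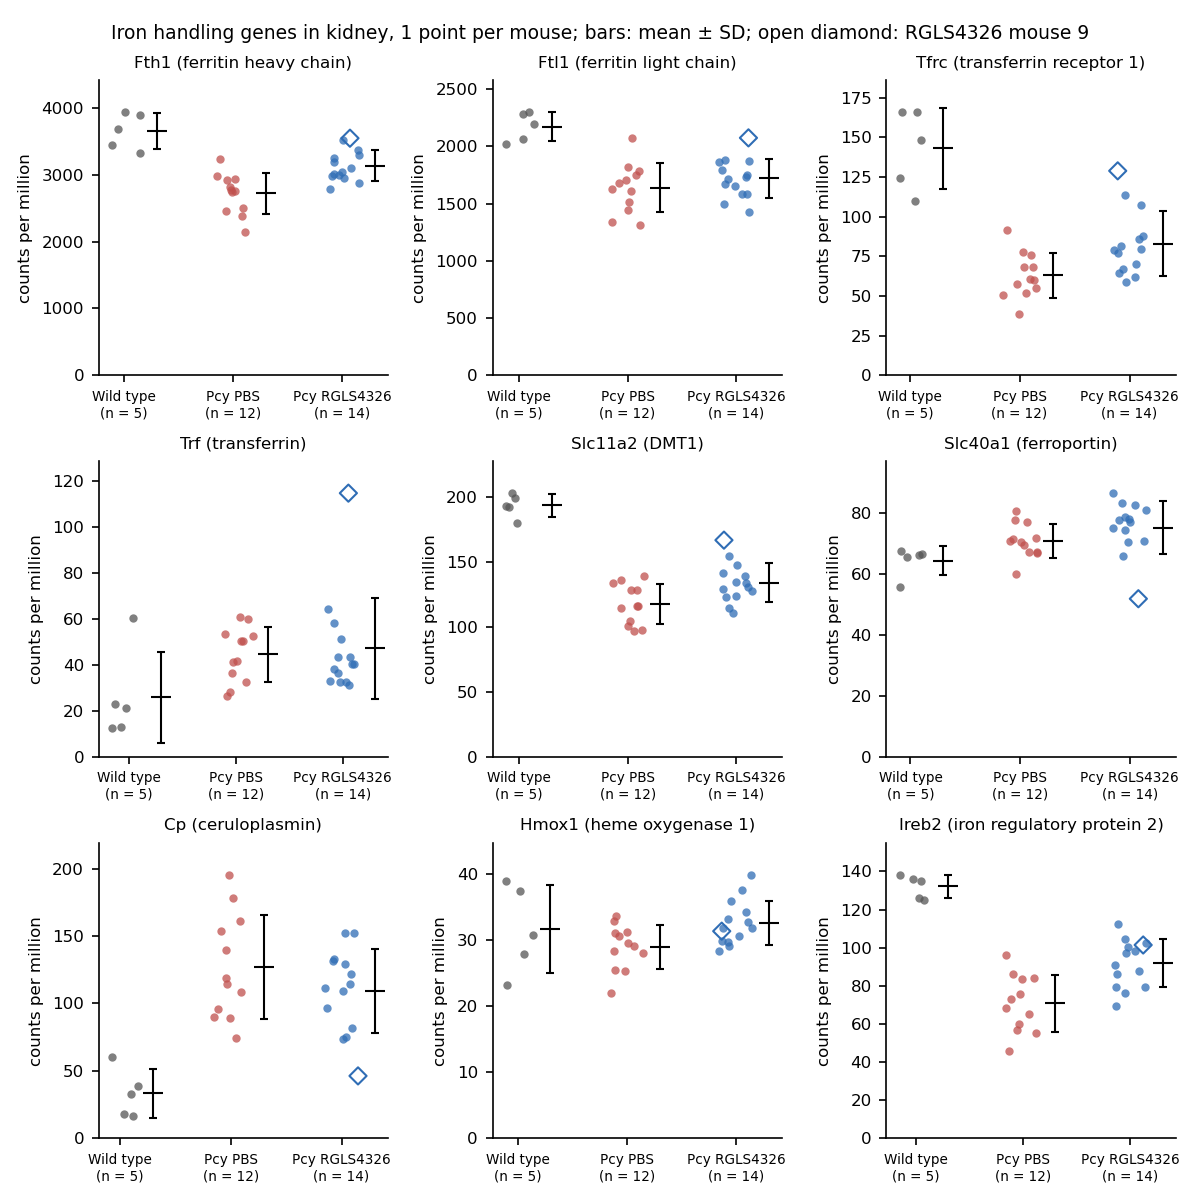
CPM in each mouse (y axis, from 0) for the 9 iron handling genes in wild-type, PBS and RGLS4326 mice (x axis), with 1 point per mouse, the mean ± SD as a black bar and RGLS4326 mouse 9 as an open diamond. PBS mice lie wholly below wild-type mice for Fth1, Tfrc, Slc11a2 and Ireb2 and wholly above them for Cp, and treated and PBS mice overlap in every panel.

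**Figure D3:**
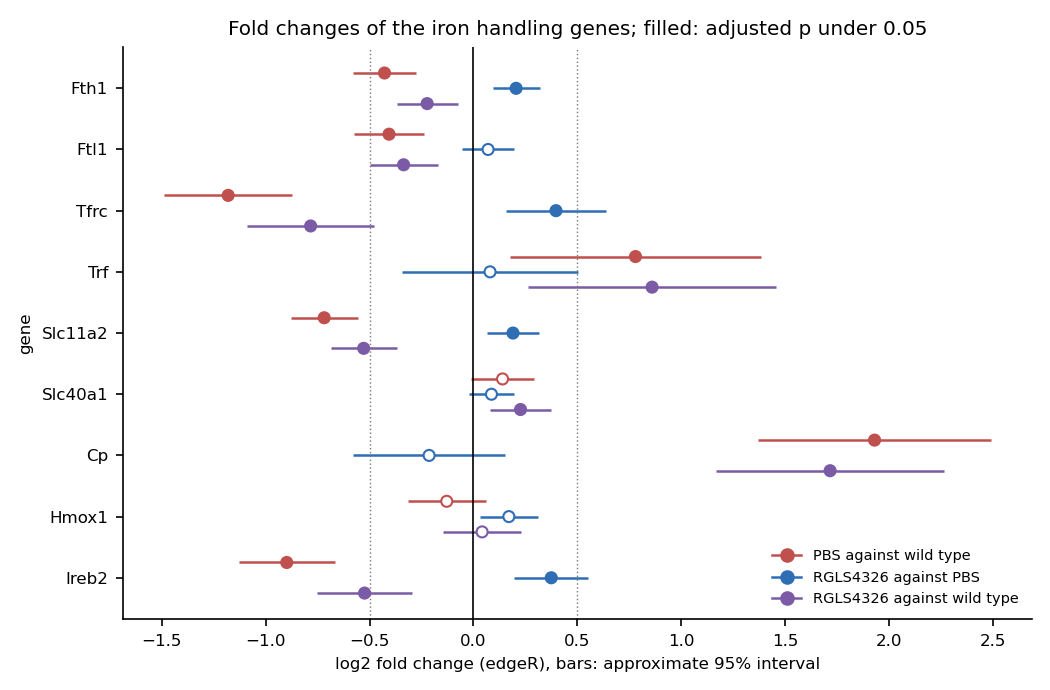
Log2 fold changes (x axis) with approximate 95% intervals for each gene (y axis) in PBS against wild type (red), RGLS4326 against PBS (blue) and RGLS4326 against wild type (purple), filled where the adjusted p is under 0.05, with dotted lines at the size threshold of 0.5. Blue points lie within 0.5 of 0 for all 9 genes, and Cp has the largest red and purple values (1.93 and 1.72).

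Fth1 and Ftl1 code for the heavy and light chains of ferritin, the heavy chain carrying the ferroxidase that loads iron. Per kilobase of annotated exon they were the most abundant of the 9 in wild-type kidneys, Ftl1 at 1621 ± 95.2 CPM per kb and Fth1 at 1054 ± 77.4 (SD, n = 5). Slc11a2 followed at 30.5 ± 1.36, Tfrc at 23.1 ± 4.08, Hmox1 at 18.1 ± 3.77, Ireb2 at 13.9 ± 0.646, Trf at 7.83 ± 5.97, Slc40a1 at 7.14 ± 0.531 and Cp at 3.48 ± 1.88 CPM per kb. In that order the neighbors Tfrc and Hmox1, Hmox1 and Ireb2, Ireb2 and Trf, and Trf and Slc40a1 were closer than their summed SDs. PBS kidneys had another order, with Trf at 13.4 ± 3.57, Cp at 13.2 ± 4.03 and Tfrc at 10.2 ± 2.29 CPM per kb, closer to each other than their SDs. These levels use the joined length of all annotated exons, 3469 bases for Fth1, 1340 for Ftl1 and 9000 for Slc40a1. The longest full Fth1 transcript is shorter, with UTRs of 795 and 150 bases and a coding part of 549. The order within the ferritin pair, and among the other genes, depends on that length. Without scaling by length, Fth1 averaged 3657 CPM and Ftl1 2172 in wild-type mice. Processed copies of both ferritin genes in the genome make the ferritin counts of uniquely mapped reads uncertain.

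Fth1 (chr19:9980598-9985098) stood at 3941, 3892, 3449, 3326 and 3678 CPM in the 5 wild-type mice. PBS mice ran from 2136 through a median of 2765 to 3240 CPM, and RGLS4326 mice from 2785 through 3073 to 3544. All 12 PBS mice were below every wild-type mouse, and all 14 treated mice were above the PBS median while 5 of them were above every PBS mouse. The log2 fold change was -0.43 in PBS against wild type (SE 0.076, adjusted p = 1.10e-05), 0.21 in RGLS4326 against PBS (SE 0.058, adjusted p = 0.0243) and -0.22 in RGLS4326 against wild type (SE 0.075, adjusted p = 0.0107). Within the 3 index series the log2 ratio of treated to PBS means was 0.20, 0.20 and 0.20. Without RGLS4326 mouse 9 the treated difference was 0.19 (adjusted p = 0.0399), and without PBS mouse 10 it was 0.19 (adjusted p = 0.0532).

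Ftl1 (chr7:45457944-45459884) was at 2020, 2060, 2302, 2283 and 2193 CPM in wild-type mice. The PBS group spanned 1312 to 2068 CPM with a median of 1654, and the treated group 1427 to 2073 with a median of 1722. PBS mouse 5 and treated mouse 9 alone reached into the wild-type range. Against wild type the log2 fold change was -0.41 in PBS mice (SE 0.085, adjusted p = 9.61e-05) and -0.34 in treated mice (SE 0.083, adjusted p = 0.000906). Between treated and PBS mice it was 0.07 with a 95% interval from -0.06 to 0.20 (adjusted p = 0.43). The log2 ratio of Fth1 to Ftl1 counts averaged 0.75 ± 0.19 in wild-type, 0.73 ± 0.20 in PBS and 0.87 ± 0.10 in RGLS4326 mice (SD), with overlapping ranges.

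Tfrc (chr16:32608920-32632794) codes for transferrin receptor 1, the receptor that carries iron-loaded transferrin into cells. Wild-type mice had 109.8, 166.1, 148.3, 166 and 124.2 CPM. PBS mice had 38.7 to 91.2 CPM (median 60.5) and RGLS4326 mice 59.0 to 128.8 (median 79.4). No PBS mouse reached the wild-type range, treated mice 9 and 10 did, and 13 of 14 treated mice were above the PBS median. Tfrc fell in PBS against wild type with a log2 fold change of -1.18 (SE 0.16, adjusted p = 1.55e-07), the largest decrease among the 9. In RGLS4326 against PBS it was 0.40 (SE 0.12, 95% interval 0.16 to 0.64, adjusted p = 0.033), and in RGLS4326 against wild type -0.78 (SE 0.15, adjusted p = 8.19e-05). Series by series the treated to PBS log2 ratio was 0.20, 0.60 and 0.37. Leaving out RGLS4326 mouse 9 gave 0.33 (adjusted p = 0.0589), and the adjusted p also passed 0.05, reaching at most 0.0678, when PBS mouse 2, 3, 5, 9 or 10 or RGLS4326 mouse 6 or 10 was left out.

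Trf (chr9:103204001-103230444) codes for transferrin, the plasma iron carrier made mainly by the liver. Its wild-type values were 12.3, 12.95, 21.1, 23.1 and 60.4 CPM, so mouse 5 was far above the other four. PBS mice had 26.4 to 60.9 CPM (median 45.9) and treated mice 31.2 to 114.7 (median 40.5), with mouse 9 at the top. Every PBS mouse was above wild-type mice 1 to 4 and 1 was above mouse 5. The log2 fold change in PBS against wild type was 0.78 (SE 0.31, adjusted p = 0.0237). It was 1.36 without wild-type mouse 5 (adjusted p = 0.000175), and leaving out wild-type mouse 1, 2, 3 or 4 gave 0.61 (adjusted p = 0.0898), 0.61 (0.0873), 0.72 (0.0581) or 0.74 (0.0513). By series the log2 ratio of PBS to wild-type means was 1.82, 1.04 and, in the series whose 1 wild-type mouse is mouse 5, -0.47. RGLS4326 against PBS gave 0.08 with a 95% interval from -0.34 to 0.50 (adjusted p = 0.803), and -0.09 without mouse 9. RGLS4326 against wild type gave 0.86 (SE 0.30, adjusted p = 0.0148), with 0.69 (adjusted p = 0.061) without wild-type mouse 1, 0.70 (adjusted p = 0.0594) without wild-type mouse 2 and 1.44 (adjusted p = 0.000155) without wild-type mouse 5. Its log2 ratio by series was 1.99, 1.204 and -0.57.

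The liver-type plasma protein list, which holds Alb and Apoa1, summed to 71.5 to 349.9 CPM in wild-type, 49.2 to 185.7 in PBS and 76.3 to 591.7 in treated mice, highest in the same wild-type mouse 5 and RGLS4326 mouse 9 as Trf. Its 10 genes were all measured above 0 in some mouse. Its part in the Trf values was not tested.

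Slc11a2 (chr15:100387898-100425072) codes for DMT1, which moves iron out of endosomes into the cytosol. It stood at 180.4, 199, 193.2, 192.2 and 203.1 CPM in wild-type mice, 96.6 to 139.0 (median 115.9) in PBS mice and 110.6 to 166.9 (median 132.4) in RGLS4326 mice. Both Pcy groups lay wholly below the wild-type mice, and 12 of 14 treated mice were above the PBS median. Log2 fold changes were -0.72 in PBS (SE 0.083, adjusted p = 2.13e-08) and -0.53 in RGLS4326 mice (SE 0.081, adjusted p = 3.55e-06) against wild type. Between treated and PBS mice the value was 0.19 (SE 0.063, adjusted p = 0.0413), with 0.08, 0.28 and 0.20 in the 3 index series. That adjusted p passed 0.05 in 14 of the 31 fits that left out 1 mouse, RGLS4326 mouse 9 among them (0.16, adjusted p = 0.0708), and reached at most 0.0873. It was also 0.0522 with no filter on low counts and 0.0619 with only the 2 groups fitted.

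Slc40a1 (chr1:45908068-45926523) codes for ferroportin, the exporter of iron from cells, and is the member with both an iron-responsive element and miR-17 seed matches in the sequences above. Wild-type mice had 66.2, 55.8, 65.4, 67.5 and 66.4 CPM, PBS mice 60.1 to 80.6 (median 70.6) and RGLS4326 mice 51.8 to 86.5 (median 77.2). The groups overlapped, with 8 of 12 PBS mice and 12 of 14 treated mice above every wild-type mouse and treated mouse 9 below all of them. RGLS4326 against PBS gave a log2 fold change of 0.09 (SE 0.056, 95% interval -0.02 to 0.20, adjusted p = 0.261). Leaving out mouse 9 gave 0.12 (adjusted p = 0.0698). PBS against wild type gave 0.14 (SE 0.077, adjusted p = 0.101), and 0.14 with an adjusted p of 0.0311 when RGLS4326 mouse 9 was left out of the shared spread. That value also passed with genes of at least 1 CPM only (0.17, adjusted p = 0.0451) and with the 2 groups fitted alone (0.16, adjusted p = 0.0223). RGLS4326 against wild type gave 0.23 (SE 0.076, adjusted p = 0.0104).

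Cp (chr3:19957054-20009145) codes for ceruloplasmin, the copper ferroxidase that loads exported iron onto transferrin. It was at 38.6, 60.5, 16.4, 17.9 and 32.8 CPM in wild-type mice. PBS mice spanned 74.7 to 195.5 CPM (median 116.7) and treated mice 46.3 to 152.4 (median 113). Every PBS mouse exceeded every wild-type mouse, and RGLS4326 mouse 9 was the 1 treated mouse inside the wild-type range. Cp rose by a log2 fold change of 1.93 in PBS against wild type (SE 0.29, adjusted p = 7.23e-07), which is 3.81-fold, and by 1.72 in RGLS4326 against wild type (SE 0.28, adjusted p = 7.35e-06). RGLS4326 against PBS gave -0.21 with a 95% interval from -0.58 to 0.15 (adjusted p = 0.407), and the series were split, with log2 ratios of 0.23, -0.35 and -0.50.

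Hmox1 (chr8:75093621-75100589) codes for heme oxygenase 1, the inducible enzyme that opens heme and frees its iron. Wild-type mice had 23.2, 27.9, 37.5, 39.0 and 30.8 CPM, PBS mice 22.0 to 33.7 (median 29.3) and RGLS4326 mice 28.3 to 39.9 (median 31.8). All 3 ranges overlapped, and the wild-type mice alone covered most of them. Log2 fold changes were -0.13 in PBS against wild type (95% interval -0.32 to 0.06, adjusted p = 0.225), 0.17 in RGLS4326 against PBS (0.03 to 0.31, adjusted p = 0.0858) and 0.04 in RGLS4326 against wild type (-0.14 to 0.23, adjusted p = 0.715). Without wild-type mouse 1 the PBS to wild-type value was -0.22 (adjusted p = 0.0365). It shrank to -0.058 (adjusted p = 0.614) without wild-type mouse 3 and to -0.043 (adjusted p = 0.711) without wild-type mouse 4. The direction against wild type turned with the index series, the PBS to wild-type log2 ratio being 0.22, -0.45 and -0.08. Fitted alone, series 2 gave -0.43 in PBS against wild type (adjusted p = 0.0392), and series 1 gave 0.41 in RGLS4326 against wild type (adjusted p = 0.0183).

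Ireb2 (chr9:54863789-54912530) codes for iron regulatory protein 2, 1 of the pair of proteins that bind the elements printed above. It stood at 124.9, 134.8, 126.1, 138.3 and 136.1 CPM in wild-type mice, 45.9 to 96.1 (median 70.8) in PBS mice and 69.5 to 112.4 (median 94.2) in RGLS4326 mice. Both Pcy groups lay below the lowest wild-type mouse, and 7 of 14 treated mice were above every PBS mouse. Ireb2 fell by 0.90 on the log2 scale in PBS against wild type (SE 0.12, adjusted p = 1.12e-07) and by 0.52 in RGLS4326 against wild type (SE 0.12, adjusted p = 0.000279). The second of these came just within the size threshold without RGLS4326 mouse 2 (-0.498) and with genes of at least 1 CPM only (-0.499). Between treated and PBS mice the log2 fold change was 0.37 (SE 0.090, 95% interval 0.20 to 0.55, adjusted p = 0.0132), with 0.25, 0.44 and 0.42 in the index series. This was the member with the smallest p in that comparison, and its adjusted p stayed between 0.00309 and 0.0324 in all 31 fits that left out 1 mouse (0.0203 without RGLS4326 mouse 9).

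Ratios within each mouse set the receptor for uptake against the storage shell and the exporter. The log2 ratio of Tfrc to Fth1 counts averaged -4.69 ± 0.33 in wild-type, -5.46 ± 0.35 in PBS and -5.27 ± 0.35 in RGLS4326 mice (SD). The ratio of Slc40a1 to Tfrc averaged -1.14 ± 0.33, 0.20 ± 0.32 and -0.12 ± 0.45 in the same order, and the wild-type values did not overlap those of PBS mice. Ireb2 to Aco1, the gene of iron regulatory protein 1, averaged -2.32 ± 0.16, -2.64 ± 0.24 and -2.41 ± 0.14. The 2 ferritin transcripts made up 0.407% to 0.567% of all counts in any mouse.

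Markers of other cell types moved with PBS against wild type, and fewer of them with treatment. Over all genes tested, 24.6% were called higher and 17.8% lower in PBS against wild type. In RGLS4326 against PBS these shares were 0.935% and 1.22%. The 10 proximal tubule genes summed to 10830 to 22250 CPM in PBS and 14960 to 33880 CPM in RGLS4326 mice, below every wild-type mouse in both groups, with 9 of 10 genes called lower in PBS against wild type. RGLS4326 against PBS called 0 of the 10. With the adjusted p alone 4 of them passed, all 4 higher, where 15.8% of all genes passed (9.15% higher). All 10 were measured above 0. Macrophage genes, among them Adgre1 and C1qa, summed to 166.4 to 186.8 CPM in wild-type, 417.6 to 723.4 in PBS and 169.3 to 865.7 in treated mice, with 9 of 10 called higher in PBS against wild type. For RGLS4326 against PBS 0 of the 10 macrophage genes passed the adjusted p (median log2 fold change -0.11). Of 5 genes each, the collecting duct list had 4 called higher in PBS against wild type, the fibroblast list 4 higher, the injury list 5 higher, the thick ascending limb and distal list 4 lower and the endothelial list 1 lower. Between RGLS4326 and PBS, 1 collecting duct gene was called lower, 1 distal gene higher, and 0 of the other 3 lists. The part of these markers in the members' values was not tested. In whole kidney, fewer cells of a type and less RNA per cell cannot be told apart. Of the red blood cell list, 9 of 10 genes were in the files, 3 of the 9 were at 0 in every mouse and 3 were tested, so that list rests on few genes.

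Within the 2 Pcy groups, several members followed these scores from mouse to mouse. Each member's log2(CPM + 1) and the mean log2(CPM + 1) of each of 4 marker lists were centered on their group means and compared over 26 mice. In all, 36 pairs were tested by two-sided permutation within groups, with Benjamini-Hochberg adjustment. Both sides come from the same libraries, and 12 pairs had an adjusted p under 0.05 by Pearson's r. Slc11a2 followed the proximal tubule score (r = 0.818, rho = 0.802, permutation p = 1e-05 for both, the smallest they can give, adjusted p = 0.000144 and 0.00018), and r was 0.762 without the 2 mice farthest from the median score. Its r was 0.960, 0.887 and 0.916 within the index series.

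Ireb2 (r = 0.792, rho = 0.808, permutation p = 3e-05 for both, adjusted p = 0.00018 and 0.00027) and Tfrc (r = 0.735, rho = 0.747, permutation p = 2e-05 for both, adjusted p = 0.000144 and 0.00024) followed the same score. Without the 2 farthest mice r was 0.801 for Ireb2 and 0.681 for Tfrc. Cp ran the other way (r = -0.903, rho = -0.912, permutation p = 1e-05 for both, adjusted p = 0.000144 and 0.00018), with r = -0.886 without the 2 farthest mice and -0.926, -0.953 and -0.850 within the series. Cp was higher where the macrophage score was higher (r = 0.778, rho = 0.666, permutation p = 2e-05 and 0.00035, adjusted p = 0.000144 and 0.0021, r = 0.685 without the 2 farthest mice), although r was 0.206 in the third series.

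The other 4 macrophage pairs past an adjusted p of 0.05 by Pearson's r were negative. They were Slc11a2 (r = -0.703, rho = -0.701, permutation p = 2e-05 and 0.00015, adjusted p = 0.000144 and 0.00108) and Tfrc (r = -0.644, rho = -0.508, permutation p = 0.00023 and 0.00907, adjusted p = 0.00103 and 0.0327), with r = -0.662 and -0.488 without the 2 farthest mice, and r = -0.200 for Tfrc in the third series. Ireb2 (r = -0.498, rho = -0.595, permutation p = 0.00142 and 0.00193, adjusted p = 0.00568 and 0.00868) and Fth1 (r = -0.474, rho = -0.560, permutation p = 0.00256 and 0.0037, adjusted p = 0.00838 and 0.0148) had r = -0.608 and -0.514 without those mice.

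A further 2 pairs passed by Spearman's rho and not by r. Trf with the macrophage score gave rho = 0.473 (permutation p = 0.0157, adjusted p = 0.0472) and r = -0.146 (permutation p = 0.473, adjusted p = 0.501), with r = 0.661 without RGLS4326 mice 6 and 9. Hmox1 with the proximal tubule score gave rho = -0.498 (permutation p = 0.0127, adjusted p = 0.0417) and r = -0.470 (permutation p = 0.0192, adjusted p = 0.0531), with r = -0.494 without the 2 farthest mice.

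Trf followed the liver-type score (r = 0.727, rho = 0.634, permutation p = 8e-05 and 0.0008, adjusted p = 0.000411 and 0.00411, r = 0.561 without the 2 farthest mice), with r = 0.109 in the first series.

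Slc40a1 and the red blood cell score gave r = -0.617 (permutation p = 0.0237, adjusted p = 0.0576) and rho = -0.165 (permutation p = 0.434, adjusted p = 0.504). That r was -0.04 without RGLS4326 mice 1 and 9, so it rested on those mice. Cp and the same score gave r = -0.624 (permutation p = 0.00186, adjusted p = 0.0067) and rho = -0.445 (permutation p = 0.0227, adjusted p = 0.0629). That r turned between groups, at 0.211 in PBS and -0.92 in RGLS4326 mice, and was 0.21 in the third series. It was -0.325 without the same 2 mice. Tfrc and that score gave r = 0.491 (permutation p = 0.01, adjusted p = 0.0301) and rho = 0.324 (permutation p = 0.113, adjusted p = 0.213), with r = 0.363 without them.

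**Figure D4:**
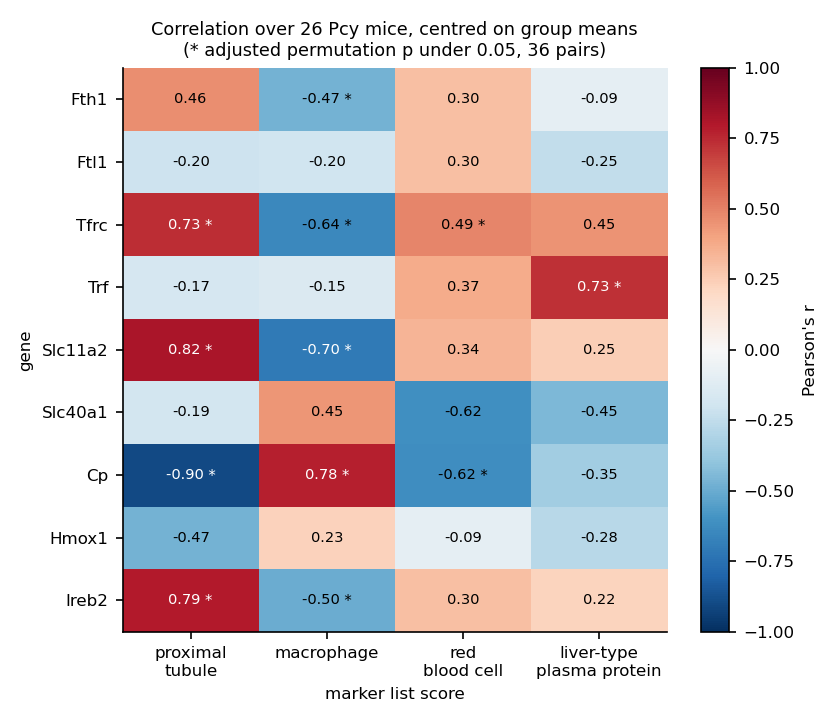
Pearson's r (color and number) between each iron handling gene (rows) and the score of each of 4 marker lists (columns) over 26 Pcy mice centered on group means, with stars where the permutation p adjusted over 36 pairs is under 0.05. Tfrc, Slc11a2 and Ireb2 are positive and Cp is negative with the proximal tubule score, and Ftl1, Slc40a1 and Hmox1 have no star in any column, where stars refer to r.

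Among the members themselves, over all 31 mice centered on group means, Tfrc and Ireb2 were the closest pair (r = 0.793), followed by Slc11a2 with Ireb2 (0.655) and Tfrc with Slc11a2 (0.62). Tfrc and Cp had r = -0.614, and Fth1 and Ftl1 had 0.405. These values are descriptions across libraries that differ in composition. They, and the likeness values that follow, include RGLS4326 mouse 9 and were not computed without it. That mouse was the highest treated mouse for Tfrc and Trf and the lowest for Slc40a1 and Cp. Among 13784 genes that averaged 1 CPM or more, those most like each member by the same measure are named next. They were Tbc1d19 (0.946), Cul4b (0.941) and Sacm1l (0.939) for Ireb2, Samd9l (0.906), Igf2r (0.904) and Actr2 (0.899) for Tfrc, and Pcsk5 (0.872), Cluh (0.866) and Slc25a15 (0.859) for Slc11a2.

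Cp was closest to Vsig10 (0.904), Serinc2 (0.892) and Csrp1 (0.892). Slc40a1 was closest to the chloride channel gene Cftr (0.872), then Pgm1 (0.752) and Tmem117 (0.746). Trf was closest to the genes of the plasma proteins Gc (0.882), Rbp4 (0.857) and Serpina1a (0.842), the last of which belongs to a family of near-identical copies and was also in the liver-type list. Fth1 was closest to Cda (0.874), Pnpla2 (0.855) and Slc25a39 (0.847), and Ftl1 to Sgta (0.879), Uap1l1 (0.834) and Mpv17l2 (0.833). Hmox1 had the weakest best match, Slpi (0.75), followed by Chac1 (0.718) and Zmat3 (0.718).

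The wider iron pathway was followed in 6 lists of 72 genes, 67 of which were tested. In PBS against wild type 10 were called higher and 20 lower, a total near the 42.4% of all genes called (24.6% higher, 17.8% lower), and the median log2 fold change was -0.21. In RGLS4326 against PBS 2 were called higher and 2 lower, with a median of 0.08, where 2.15% of all genes were called, and with the adjusted p alone 14 were higher and 2 lower, where 15.8% of all genes passed. RGLS4326 against wild type called 10 higher and 11 lower, where 31.5% of all genes were called. Lrp2 and Cubn also belong to the proximal tubule list, Lcn2 to the injury list, and Alas2 and Slc25a37 to the red blood cell list.

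Uptake and reduction genes split in PBS against wild type, 6 of 16 higher and 6 lower, where 24.6% of all genes were called higher and 17.8% lower. Steap2, a metalloreductase, fell by 0.95 on the log2 scale (SE 0.086, adjusted p = 1.37e-09), and the metal importer Slc39a8 fell by 1.06 (SE 0.12, adjusted p = 1.12e-08). Mfi2, the gene of melanotransferrin, rose from 1 to 4 counts per wild-type mouse to 20 to 130 counts per PBS mouse (log2 fold change 4.36, SE 0.54, adjusted p = 5.83e-08). With treatment, against PBS, it fell by 0.90 (SE 0.25, adjusted p = 0.0242), a call that was lost without PBS mouse 5 (adjusted p = 0.0541), 9 (0.0519) or 10 (0.0607). Ltf, lactoferrin, fell by 1.102 (SE 0.33, adjusted p = 0.0307) at 0 to 14 counts per Pcy mouse, and the call was lost without PBS mouse 9 (0.0581) or 10 (0.0587) or RGLS4326 mouse 8 (0.0539). Without PBS mouse 2, 3, 5 or 12, Ltf no longer passed the filter on low counts and was not tested. Treated mice had 0 to 7 counts, at most 0.358 CPM. Ltf thus passed the filter through wild-type and PBS mice, where it was higher, and no conclusion is drawn from its fall. Lcn2, the siderophore carrier and injury marker, had a log2 fold change of 6.68 in PBS (SE 0.85, adjusted p = 7.24e-08) and 5.88 in RGLS4326 mice (SE 0.81, adjusted p = 9.49e-07) against wild type, and -0.81 in RGLS4326 against PBS (SE 0.41, adjusted p = 0.148). Steap2 had -0.76 and Slc39a8 -0.80 in RGLS4326 against wild type.

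Of 7 tested genes of export and hepcidin control, 2 rose and 1 fell in PBS against wild type. That is near the 42.4% of all genes called (24.6% higher, 17.8% lower). Hamp, the gene of the iron hormone hepcidin, was near the limit of detection, at 2 to 42 counts per wild-type mouse, 0 to 8 per PBS mouse and 2 to 71 per RGLS4326 mouse. Its log2 fold change was -2.56 in PBS against wild type (SE 0.71, adjusted p = 0.00193) and 2.05 in RGLS4326 against PBS (SE 0.58, adjusted p = 0.0258). PBS mice reached at most 0.299 CPM, so Hamp passed the filter on low counts through wild-type and treated mice, where it was higher. No conclusion is drawn from either call. Mouse 9 held the highest treated value, and without it the treated difference was 1.37 (adjusted p = 0.0629). That call was also lost without PBS mouse 5 (0.0508) or 9 (0.0501), and the call against wild type without wild-type mouse 5 (-1.62, adjusted p = 0.0719). Hamp is made mainly by the liver, and its highest wild-type and treated mice, 5 and 9, were also highest for the liver-type list. In RGLS4326 against PBS that list had 10 of 10 genes with a positive log2 fold change (median 1.04), 2 of them called higher, and its part in the Hamp values was not tested. Bmp2 rose by 1.19 (SE 0.27, adjusted p = 0.000297) and Fam132b, the gene of erythroferrone, by 2.29 at 1 to 28 counts per mouse (SE 0.66, adjusted p = 0.00254). The storage list had 1 of 3 tested genes called, as lower, where 17.8% of all genes were called lower. It was Ncoa4, the adaptor that sends ferritin to lysosomes, which fell by 0.51 (SE 0.11, adjusted p = 0.000169). Its value came within the size threshold, at -0.48 to -0.49, without PBS mouse 3, 5, 9 or 10 or wild-type mouse 1.

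Heme synthesis, transport and breakdown genes had 7 of 21 called lower and 2 higher in PBS against wild type, in all near the 42.4% over all genes. Fech, which inserts iron into heme, fell by 1.07 (SE 0.11, adjusted p = 7.13e-09), Cpox by 1.22 (SE 0.14, adjusted p = 1.92e-08) and Uros by 0.65 (SE 0.078, adjusted p = 3.44e-08), all 3 being enzymes of heme synthesis. In RGLS4326 against PBS only Alas1, the first enzyme of that pathway, was called in this list. It had 74.0 to 167.4 CPM in PBS mice (median 102.1) and 91.8 to 348.6 in treated mice (median 147.8), and rose by 0.66 (SE 0.17, adjusted p = 0.0205; 0.67 and 0.0253 without mouse 9). Fech had 0.31 in that comparison (SE 0.087, adjusted p = 0.0263). Blvrb, a biliverdin reductase, fell by 0.71 in RGLS4326 against wild type (SE 0.12, adjusted p = 7.42e-06).

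Of 4 genes for iron regulatory proteins and sensing, only Aco1 was called in PBS against wild type, as lower (log2 fold change -0.59, SE 0.099, adjusted p = 4.12e-06). Over all genes, 17.8% were called lower there. In RGLS4326 against PBS 0 of 4 were called, where 2.15% of all genes were called. Mitochondrial iron and iron-sulfur cluster genes had 4 of 16 called lower and 0 higher in PBS against wild type, where 17.8% of all genes were called lower and 24.6% higher. Nfs1, the cysteine desulfurase, fell by 0.70 (SE 0.087, adjusted p = 5.50e-08) and the chaperone Hspa9 by 0.62 (SE 0.084, adjusted p = 1.72e-07). In RGLS4326 against PBS 0 of 16 were called and 4 passed the adjusted p alone, all 4 higher, where 15.8% of all genes passed (9.15% higher).

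**Figure D5:**
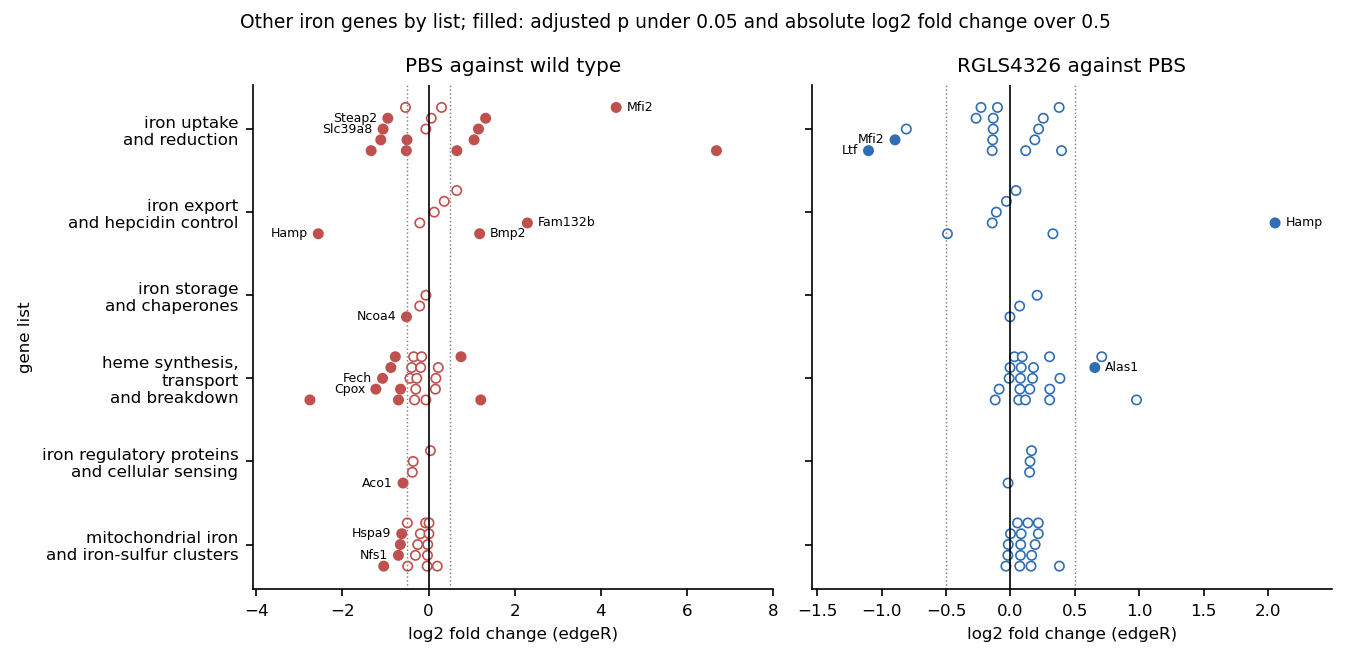
Log2 fold changes (x axis) of the other iron genes, 1 point per gene in 6 lists (y axis), in PBS against wild type (left) and RGLS4326 against PBS (right), filled where the adjusted p is under 0.05 and the absolute value over 0.5. On the left 30 points are filled, 20 of them below 0, and on the right 4 are filled, Mfi2 and Ltf below 0 and Alas1 and Hamp above.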

How the data were processed

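Per the labels and the study's methods, poly(A) RNA was made into libraries with a stranded mRNA kit. The submitters' processing notes name Trim Galore, FastQC 0.11.2, STAR, SAMtools 1.1, Picard 1.119, HTSeq 0.6.1 and the build GRCm38/mm10. The deposited files hold raw counts per gene, 1 file per mouse. The gene annotation and strand setting are not given in the sources used here. Reads on no gene were 8.39% to 10.1% of the counter's total, and reads aligned to several places 17.8% to 21.2%; both were left out.

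The counts were fitted with edgeR 4.0.16 in R 4.3.3 (filterByExpr, TMM scaling, quasi-likelihood test, 1 mean per group, all 31 mice, no covariate), with Benjamini-Hochberg adjustment over 15185 genes. Calls needed an adjusted p below 0.05 and a log2 fold change exceeding 0.5 in size. SE was taken as the log2 fold change over the root of its F value, and 95% intervals are approximate. CPM used TMM-scaled library sizes. Correlations used 100000 permutations (Python 3.11.15, scipy 1.17.1). The fit was tested on simulated counts.

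The 9 members and the lists were chosen with earlier results of these data known. Named are all members, up to 3 called genes of smallest p per wider list and comparison, the 3 genes most like each member and up to 2 genes per marker list. Genes shared between lists, Fech in RGLS4326 against PBS, and Lcn2 outside RGLS4326 against wild type, were named after their values were seen. A gene that this rule would name is not reported here. Groups come from the labels, each sample being 1 mouse. Alternatives covered the filter, scaling, DESeq2 1.42.0, the samples fitted, the index series, the replicate block, each series alone, the size threshold and each mouse left out, and, added after the data were seen, wild-type mice 3 and 4 summed as 1 mouse.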

Additional observations from a re-analysis of the deposited data

Results flagged for a closer look

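Among the 9 members, 2 had a wild-type mouse set apart from the other four by a Dixon test at the 95% level, and chance would mark about 1 in 20 groups. Trf was at 60.4 CPM in wild-type mouse 5, and the gap to the next mouse was 0.775 of the group's range, against a critical value of 0.71 for 5 samples. Slc40a1 was at 55.8 CPM in wild-type mouse 2, with a gap of 0.822 of the range.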

How the results depend on the processing

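For PBS against wild type, 4 to 5 members were called when each mouse was left out, 6 to 8 with the adjusted p alone, and 26 to 31 wider iron genes. For RGLS4326 against PBS these ranges were 0 to 0, 1 to 4 and 1 to 5, and for RGLS4326 against wild type 4 to 5, 7 to 8 and 20 to 24. The 4 members passing the adjusted p in RGLS4326 against PBS became 1 without PBS mouse 10 and 2 without PBS mouse 2, 3, 5 or 9 or RGLS4326 mouse 6, 9 or 10. The 4 wider genes called there became 1 without PBS mouse 5 or 9 and 2 without PBS mouse 10. Replicate numbers did not pair the mice: same-numbered PBS and RGLS4326 mice had correlations of deviations from -0.47 to 0.506, 4 of 12 pairs were above 0.1 and 2 of 12 PBS mice correlated best with their own number. With a replicate block, 1 member passed the adjusted p in RGLS4326 against PBS and 0 wider genes were called. In index series 1, 2 and 3 alone, with fewer mice, 0 members passed the adjusted p and 0 wider genes were called in that comparison. In index series 2 alone, RGLS4326 against wild type called 1 member, 1 member passed the adjusted p and 1 wider gene was called. With genes of at least 1 CPM only, 2 wider genes were called in RGLS4326 against PBS. Ltf and Hamp, which averaged below 1 CPM in every group, were left out by that filter. With the 2 groups compared only, 2 wider genes were called too, and the cause was not tested. Without the size threshold the counts were 4 members and 16 wider genes in RGLS4326 against PBS, 8 and 45 in RGLS4326 against wild type, and 50 wider genes in PBS against wild type. Over the fits that left out 1 mouse, Trf in RGLS4326 against PBS ran from -0.088 to 0.13 and Hmox1 in RGLS4326 against wild type from -0.048 to 0.13. In the refits, direction turned for values that were short of the adjusted p threshold: Hmox1 in index series 1 (PBS against wild type, 0.22), in series 2 (RGLS4326 against wild type, -0.18) and without wild-type mouse 1 (RGLS4326 against wild type, -0.048), Trf in RGLS4326 against PBS in series 3 (-0.10) and without RGLS4326 mouse 9 (-0.088), and Cp in RGLS4326 against PBS in series 1 (0.23). With wild-type mice 3 and 4 summed as 1 mouse, chosen after seeing the data, Trf in PBS against wild type had an adjusted p of 0.0526. Among marker pairs, 12 passed at a pseudocount of 1, 10 at 0.1 and 17 at 5. The means of Trf in index series 3, with 1 wild-type mouse and so no refit, also turned in both comparisons against wild type.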
